A study of Mus musculus with 18 samples.

Results

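Inward rectifier potassium channels, encoded by the Kcnj gene family, pass potassium more readily into the cell than out of it and hold the membrane near its resting potential. A set of 9 of these genes, chosen by name, was followed through the cortex transcriptomes of 3 mouse genotypes. They were Kcnj6 and Kcnj15, which lie in a duplicated segment of chromosome 16, and the 7 unduplicated genes Kcnj3, Kcnj9, Kcnj10, Kcnj16, Kcnj2, Kcnj4 and Kcnj11. These 9 were among 55385 genes in the count table. Of the 9, 8 passed the filter on low counts, as did 18717 genes in all, and Kcnj15 did not.

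Polyadenylated RNA was sequenced from brain cortex of adult mice aged 17.1 to 18 weeks, with 6 libraries per genotype, 3 from males and 3 from females. Dp16_2xIFNRs mice carry the same duplication as Dp16 mice, with the dosage of the interferon receptor genes inside the segment brought back to normal. Dp16 mice carry the chromosome 16 duplication, a model of trisomy 21, so that genes of the segment stand at 3 copies against 2 in WT. WT mice were C57BL/6J, and the labels name no strain for the other genotypes and no treatment for any. Kcnj6 and Kcnj15 are therefore at 3 copies in both Dp16_2xIFNRs and Dp16. The duplication is inherited and so present in all cell types, and the tissue was cortex as a whole. Library totals ran from 46346019 to 67281449 counts. Markers of neurons, astrocytes and oligodendrocytes were abundant in every library, and none of the 16 marker lists held a gene called by edgeR in any contrast. At an unadjusted p under 0.05 there were 8 of 69 marker genes in Dp16_2xIFNRs against WT and 7 in Dp16 against WT. The share of all tested genes under that value is not given for these contrasts, so such counts, here and below, are descriptions only. WT replicate 6 had the lowest WT values of Kcnj10 and Kcnj16 and the highest of Kcnj6, though its Kcnj6 value was close to that of WT replicate 1. This library was also lowest in WT for the summed markers of astrocytes (6910 CPM, counts scaled to library size, against 9100 to 10200 in the other 5). The same held for excitatory cortical neurons (5720 against 6420 to 7340) and microglia (278 against 386 to 433). It held too for oligodendrocyte precursors (138 against 170 to 226), endothelium (161 against 214 to 247), pericytes (166 against 196 to 228), blood and choroid plexus. Its sums for general neuron markers (6730, WT range 5980 to 7130) and GABAergic neurons (909, WT range 840 to 971) were not extreme. The labels do not say that each sample came from a different animal, so p-values measure the spread between samples only. The sample descriptions also carry identifier numbers, 5 of which recur in more than 1 genotype and together cover 11 of the 18 libraries. What these numbers stand for is not stated, and the tests did not pair libraries by them.

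The channels work as tetramers. Kcnj3, Kcnj6 and Kcnj9 encode GIRK subunits, which the beta and gamma subunits of inhibitory G proteins open after a receptor for GABA, adenosine, opioids or somatostatin is activated, and which slow neuronal firing. Kcnj6 (GIRK2) forms channels by itself or with its partners, whereas Kcnj3 (GIRK1) and Kcnj9 (GIRK3) depend on a partner to reach or work at the cell surface. Kcnj10 encodes the main inward rectifier of astrocytes, which takes up potassium released by firing neurons, and Kcnj16 encodes a subunit that joins it in mixed channels. Kcnj2 and Kcnj4 encode strongly rectifying channels of neurons and other excitable cells. Kcnj11 encodes the pore of channels that close when ATP is high. Kcnj15 encodes a channel best known from kidney and other epithelia.

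The selectivity filter, the stretch of the pore that lets potassium through and holds back sodium, is the most alike part of the family and shows how far the transcripts can be told apart. The weaver mouse, which loses cerebellar granule cells and dopaminergic neurons, carries a change in this filter of Kcnj6. The 45 coding bases around it are given 5′ to 3′ for 8 of the genes from the longest coding transcript of GENCODE release M21 (build GRCm38), with the 15 bases of the filter codons in capitals.
Kcnj6: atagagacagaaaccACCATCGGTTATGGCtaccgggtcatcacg
Kcnj3: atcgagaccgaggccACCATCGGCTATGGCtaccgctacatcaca
Kcnj9: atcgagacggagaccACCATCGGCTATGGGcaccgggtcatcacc
Kcnj16: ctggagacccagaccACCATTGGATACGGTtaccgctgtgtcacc
Kcnj2: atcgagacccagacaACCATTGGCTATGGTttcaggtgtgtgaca
Kcnj4: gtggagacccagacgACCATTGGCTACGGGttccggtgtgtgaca
Kcnj11: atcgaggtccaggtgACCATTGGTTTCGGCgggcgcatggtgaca
Kcnj15: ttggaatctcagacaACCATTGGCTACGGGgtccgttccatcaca
Over these 45 bases Kcnj6 differed from its partner Kcnj9 at 7 and from Kcnj3 at 9, and from the ATP-gated Kcnj11 at 21. Kcnj15 and Kcnj4 had identical filter codons. Even so, no stretch of 31 coding bases was shared between any of these genes and the 14 other Kcnj genes compared, apart from 2 that Kcnj4 shares with Kcnj12. Coding stretches of that length therefore nearly always tell these genes apart within the family. Noncoding parts of the transcripts and genes outside the family were not compared in this way.

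The genes fall on 6 chromosomes, and 3 pairs are close neighbours. Kcnj6 lies on the minus strand at chr16:94748636-94997701 and Kcnj15 on the plus strand at chr16:95257558-95300260, 259.9 kb apart. Kcnj9, on the minus strand at chr1:172320501-172329318, and Kcnj10, on the plus strand at chr1:172341210-172374085, are 11.9 kb apart. Kcnj16, at chr11:110968033-111027968, and Kcnj2, at chr11:111066164-111076821, lie 38.2 kb apart on the plus strand. Kcnj3 is at chr2:55435970-55598145 on the plus strand, Kcnj4 at chr15:79483714-79505241 on the minus strand and Kcnj11 at chr7:46093953-46100764 on the minus strand. These are gene bounds of GENCODE M21 in GRCm38. Kcnj6 overlaps the antisense gene Gm41505, and 4.6% of the 31-base stretches of Kcnj6 transcripts lie on the other strand of genes that overlap it. Gm41505 had 68 counts in all in Dp16_2xIFNRs, 88 in Dp16 and 35 in WT, against 11869, 10561 and 6621 for Kcnj6. The strand setting of the counting is not given in the sources used here.

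Levels can be compared between genes only per length. On the deposited RPKM scale (reads scaled to gene length and library total) Kcnj6 was among the lower members. That scale uses a single length per gene, 6.54 kb for Kcnj6 and 5.21 kb for Kcnj3. The order of the genes and the size of ratios between them depend on these lengths. Kcnj6 averaged 5.44 ± 0.414 RPKM in Dp16_2xIFNRs, 4.96 ± 0.664 in Dp16 and 3.39 ± 0.77 in WT (SD, n = 6 each). Kcnj4 was highest, at 59.6 ± 4.35 RPKM in Dp16_2xIFNRs, 61.5 ± 4.78 in Dp16 and 62.9 ± 2.88 in WT. Kcnj10, Kcnj9, Kcnj3, Kcnj11 and Kcnj16 followed in that order in all 3 genotypes. In WT they averaged 51, 45.1, 25.8, 18.5 and 9.83 RPKM. Kcnj10 and Kcnj9 overlapped in every genotype, and Kcnj3 and Kcnj11 overlapped in Dp16 and WT, while the other steps from Kcnj4 down to Kcnj16 showed no overlap between libraries. Below Kcnj16 the order changed. Kcnj6 stood above Kcnj2 in both Dp16_2xIFNRs and Dp16, where Kcnj2 averaged 3.64 ± 1.31 and 3.05 ± 0.357 RPKM, and below it in WT, where Kcnj2 averaged 3.63 ± 0.691 RPKM. The ranges of Kcnj6 and Kcnj2 overlapped in Dp16_2xIFNRs and in WT and not in Dp16.

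**Figure D1:**
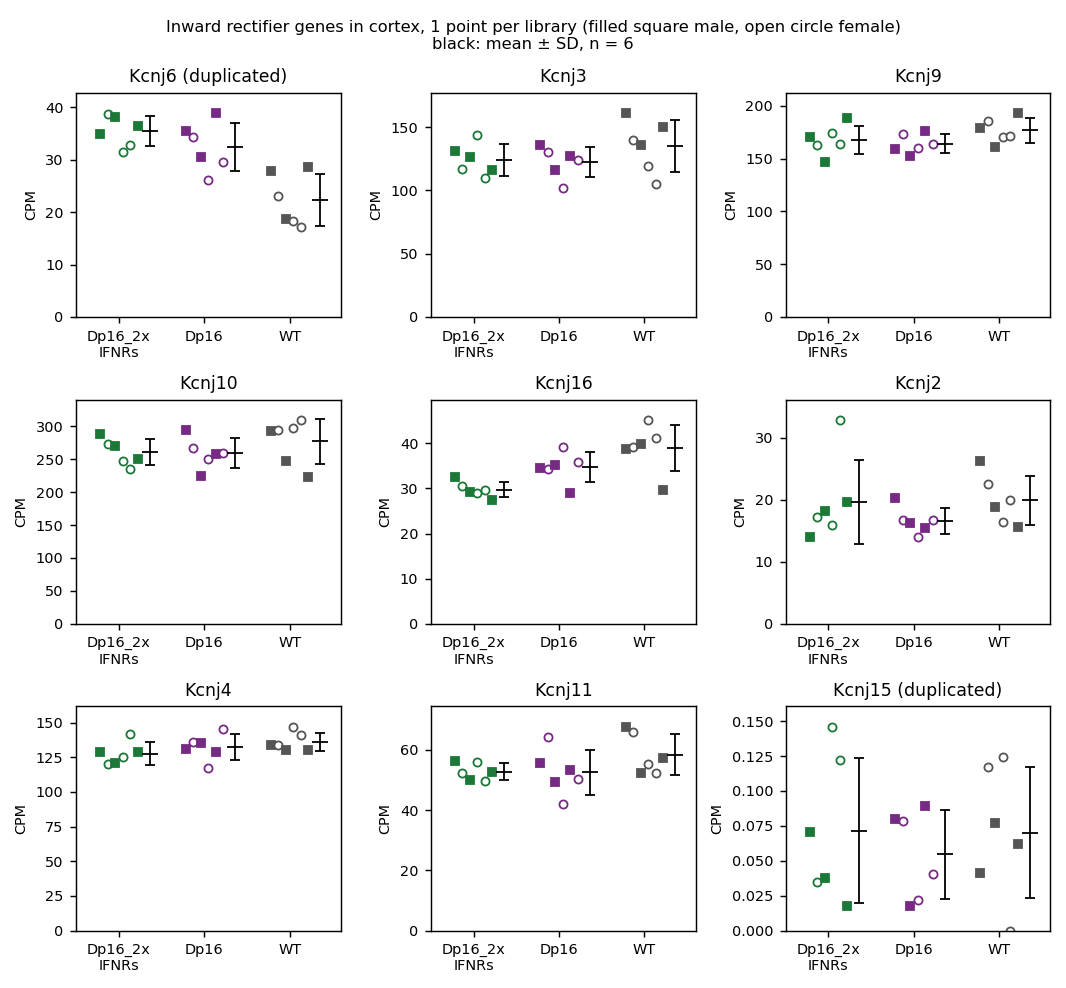
Levels of the 9 genes in each library in CPM (counts scaled to library size, TMM-normalised), with Dp16_2xIFNRs, Dp16 and WT from left to right. Filled squares are males, open circles females, and black bars the mean ± SD of 6 libraries; each panel has its own scale from 0. Kcnj6 was higher and Kcnj16 lower in Dp16_2xIFNRs than in WT, and Kcnj15 stayed below 0.15 CPM in all libraries.

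Kcnj6 was higher in both genotypes that carry it in 3 copies. In Dp16_2xIFNRs its lowest, median and highest library had 31.5, 35.7 and 38.8 CPM, in Dp16 26.1, 32.4 and 38.9, and in WT 17.2, 20.8 and 28.7. Every Dp16_2xIFNRs library lay above every WT library, as for 0.93% of all tested genes, and 5 of 6 Dp16 libraries lay above the highest WT library. The ranges of Dp16_2xIFNRs and Dp16 overlapped. The fold change in Dp16_2xIFNRs against WT was 1.6 (95% interval 1.37 to 1.87, log2 fold change 0.68, adjusted p = 0.00163). In Dp16 against WT it was 1.46 (1.25 to 1.71, log2 fold change 0.55, SE 0.107, adjusted p = 0.0138). Averaged over both duplication genotypes, the log2 fold change against WT was 0.61 (adjusted p = 0.00102). These comparisons share the 6 WT libraries. In tissue made of many cell types, more cells that express a gene and more RNA per cell cannot be told apart.

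The call in Dp16 was less secure than that in Dp16_2xIFNRs. Without Dp16 replicate 5, the highest library of its group at 38.9 CPM, the adjusted p in Dp16 was 0.0512, and in a fit of the Dp16 and WT libraries alone it was 0.0676. The call in Dp16_2xIFNRs held whichever single library was left out, with adjusted p-values from 0.000716 to 0.00682. Kcnj6 was most variable in WT, with a coefficient of variation of 8.21% in Dp16_2xIFNRs, 14.1% in Dp16 and 22.6% in WT. The 2 highest WT libraries, replicates 1 and 6, had 27.8 and 28.7 CPM, and the other 4 ranged from 17.2 to 23.1 CPM.

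Between the duplication genotypes Kcnj6 did not pass the test. The log2 fold change of Dp16_2xIFNRs against Dp16 was 0.13, with a 95% interval of -0.09 to 0.35 (adjusted p = 1). This interval spans changes from 0.94-fold to 1.28-fold.

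The rise of Kcnj6 was close to that of the segment around it. The 110 other tested segment genes outside the receptor cluster had a median fold of 1.47 in Dp16_2xIFNRs and 1.46 in Dp16 against WT. Kcnj6 had a higher fold than 93 of the 110 in Dp16_2xIFNRs and than 55 of the 110 in Dp16. The copy ratio of 1.5 lay inside the interval of Kcnj6 in both. Per library, Kcnj6 relative to the median of the other segment genes was above WT by 0.15 (log2 units) in Dp16_2xIFNRs (95% interval -0.20 to 0.48, exact permutation p = 0.301) and by 0.0015 in Dp16 (-0.37 to 0.37, exact permutation p = 0.991). The intervals admit departures of about 0.37 either way in Dp16, so that a smaller departure from the segment was not detectable with 6 libraries each.

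Markers of neurons that are rich in Kcnj6 gave no call. Of the hippocampal granule neuron markers, Prox1 was 1.12-fold in Dp16_2xIFNRs and 0.99-fold in Dp16, and Dsp, which averaged 0.558 CPM in Dp16_2xIFNRs, 0.561 in Dp16 and 0.297 in WT, was 1.87-fold and 1.85-fold (adjusted p = 0.522 and 0.654). As the list holds only 2 genes, its median log2 fold change, 0.53 in Dp16_2xIFNRs and 0.44 in Dp16, came mainly from the low-count Dsp. Kcnj6 had 0.68 and 0.55. Together the 2 markers summed to 17.3 to 28.4 CPM in Dp16_2xIFNRs, 16.7 to 24.9 in Dp16 and 17.2 to 21 in WT. Those of dopaminergic neurons lay on both sides of WT, with Th at 1.27-fold in Dp16_2xIFNRs and 1.23-fold in Dp16 and Ddc at 0.71-fold and 0.75-fold. Of the 2, Ddc had an unadjusted p under 0.05 in each contrast (0.00212 and 0.00754), and both genes did over the duplication genotypes together. They summed to 5.04 to 7.34 CPM in Dp16_2xIFNRs, 4.84 to 7.37 in Dp16 and 5.15 to 9.45 in WT. Their part in the Kcnj6 result was not tested.

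**Figure D2:**
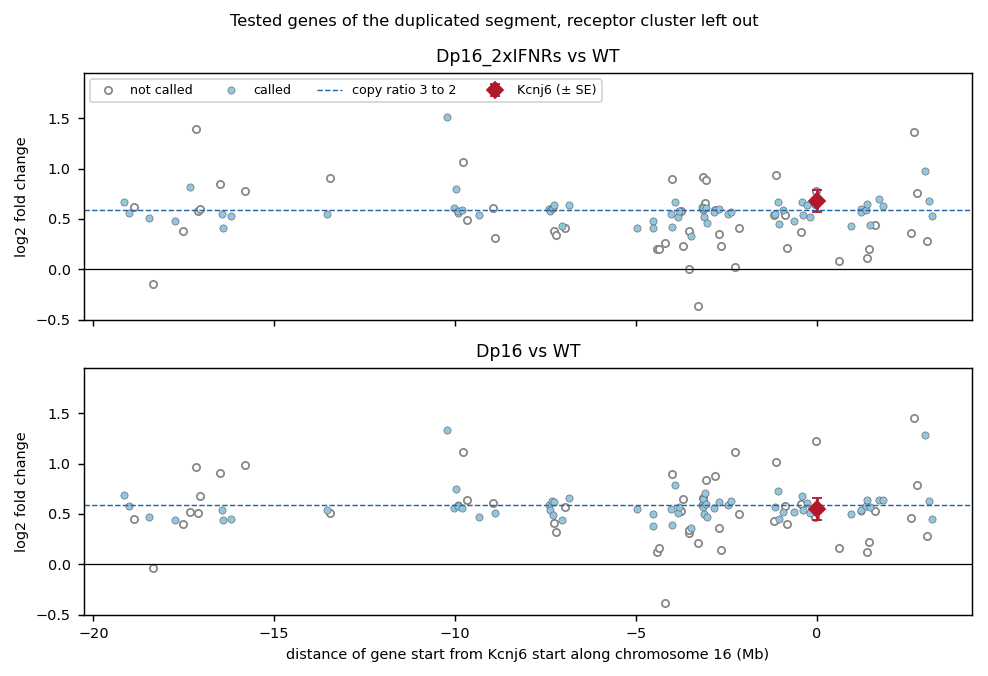
Log2 fold changes against WT of the tested genes of the duplicated segment (receptor cluster left out), in Dp16_2xIFNRs above and Dp16 below, by the distance in Mb of the gene start from the Kcnj6 start. The dashed line is the copy ratio of 3 to 2, and Kcnj6 (red, ± SE) lies near it in both, at 0.68 in Dp16_2xIFNRs and 0.55 in Dp16.

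Most genes on either side of Kcnj6 and Kcnj15 were higher as well. Of the 8 nearest tested genes, 4 on each side, 5 were called higher in each duplication genotype and all 8 lay above WT. The share called was close to that of all tested segment genes outside the receptor cluster, 56.8% in Dp16_2xIFNRs and 57.7% in Dp16. It is thus not particular to these neighbours. Dyrk1a, a kinase gene next to Kcnj6, was 1.43-fold higher in Dp16_2xIFNRs and 1.42-fold higher in Dp16 (adjusted p = 5.77e-07 and 7.17e-07). Ets2, a transcription factor gene beyond Kcnj15, was 1.34-fold higher in Dp16_2xIFNRs and 1.42-fold higher in Dp16. Erg, a transcription factor gene of endothelial cells and the first tested gene beyond Kcnj15, had the lowest values, 1.06-fold in Dp16_2xIFNRs (adjusted p = 0.835) and 1.12-fold in Dp16 (adjusted p = 0.683). Vps26c, Psmg1 and Brwd1 were called in both genotypes, with folds from 1.45 to 1.55. The antisense gene Gm41505 and its neighbour Gm41504 averaged 0.118 and 0.155 CPM in WT and were not called.

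Across all tested genes, 1.05% were called in Dp16_2xIFNRs against WT and 0.748% in Dp16 against WT in either direction. Among tested segment genes outside the receptor cluster, 56.8% were called higher in Dp16_2xIFNRs and 57.7% in Dp16. In Dp16_2xIFNRs, 2 of the 8 tested Kcnj members were called, Kcnj6 among the 0.737% of all genes called higher and Kcnj16 among the 0.31% called lower. In Dp16 1 member was called, Kcnj6, among the 0.636% called higher. Over both duplication genotypes against WT, where 1.44% of all tested genes were called, Kcnj6 and Kcnj16 were called. Between Dp16_2xIFNRs and Dp16, 0 of 8 members were called by edgeR, DESeq2 or limma-voom, and 1, Kcnj16, had an unadjusted p under 0.05. In that contrast 0.0214% of all tested genes were called, and 2.19% had an unadjusted p under 0.05.

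The 7 unduplicated members all lay below WT in both duplication genotypes, but only Kcnj16 passed the test in Dp16_2xIFNRs and none did in Dp16. Their median log2 fold change was -0.09 in Dp16_2xIFNRs and -0.14 in Dp16. Over all tested genes the median was 0.0004 in Dp16_2xIFNRs and -0.0017 in Dp16, and 49.8% and 50.7% of genes lay below WT. Both contrasts share the WT libraries. Not every sign was stable. The log2 fold change of Kcnj2 in Dp16_2xIFNRs ran from -0.24 to 0.084 when 1 library was left out. Kcnj10 lay above WT in males (0.086 in Dp16_2xIFNRs, 0.028 in Dp16) and below it in females (-0.25 and -0.21). Kcnj3 and Kcnj2 lay above WT in Dp16_2xIFNRs females (0.027 and 0.16), and Kcnj4 in Dp16 males (0.0036).

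**Figure D3:**
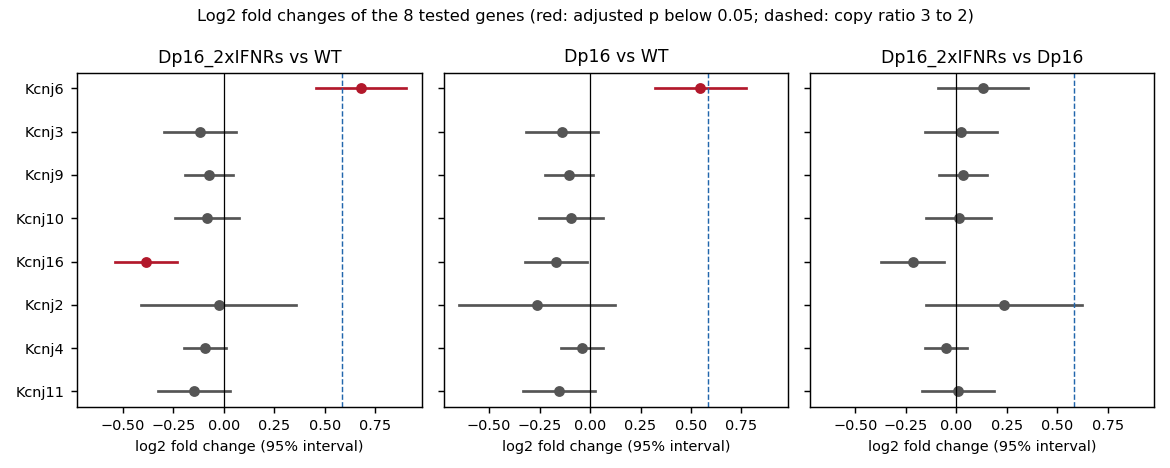
Log2 fold changes with 95% intervals of the 8 tested genes in Dp16_2xIFNRs against WT, Dp16 against WT and Dp16_2xIFNRs against Dp16. Red marks an adjusted p below 0.05 and the dashed line the copy ratio of 3 to 2; the unduplicated genes lie left of 0 in both contrasts with WT.

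The GIRK partner genes Kcnj3 and Kcnj9 did not follow Kcnj6. Kcnj3 had 110, 121 and 144 CPM in its lowest, median and highest Dp16_2xIFNRs library, 102, 125 and 136 in Dp16 and 105, 138 and 161 in WT. The 3 ranges overlapped. Its fold change was 0.921 (0.813 to 1.04, adjusted p = 0.668) in Dp16_2xIFNRs and 0.907 (0.801 to 1.03, adjusted p = 0.7) in Dp16. Kcnj9 had 147, 167 and 188 CPM in Dp16_2xIFNRs, 152, 162 and 176 in Dp16 and 161, 175 and 193 in WT, again with overlap. Its fold change was 0.951 (0.876 to 1.03, adjusted p = 0.703) in Dp16_2xIFNRs and 0.93 (0.857 to 1.01, adjusted p = 0.643) in Dp16. The intervals of both genes end well under the copy ratio of 1.5.

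The balance of GIRK subunit transcripts differed between the genotypes. For every 100 RPKM of Kcnj3, Kcnj6 had 23 ± 3.23 RPKM in Dp16_2xIFNRs, 21.1 ± 1.8 in Dp16 and 13.1 ± 1.45 in WT (SD, n = 6 each). The lowest duplication library, at 17.4, lay above the highest WT library, at 15.2. On the log2 scale the ratio was higher than in WT by 0.81 in Dp16_2xIFNRs (95% interval 0.56 to 1.05) and by 0.70 in Dp16 (0.52 to 0.89), each with an exact permutation p of 0.00216, the smallest possible with 6 libraries against 6, and 0.00649 adjusted over 12 tests. For every 100 RPKM of Kcnj9, Kcnj6 had 12.7 ± 1.77 in Dp16_2xIFNRs, 11.7 ± 1.38 in Dp16 and 7.46 ± 1.32 in WT. The log2 differences from WT were 0.77 (0.47 to 1.06) in Dp16_2xIFNRs and 0.66 (0.38 to 0.94) in Dp16, with the same p-values and no overlap. These ratios contain the Kcnj6 values given above, and are no second line of evidence for them.

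Between the duplication genotypes the ratios did not pass the test. The log2 difference of Dp16_2xIFNRs from Dp16 was 0.12 for Kcnj6 to Kcnj3 (95% interval -0.12 to 0.32, exact permutation p = 0.275) and 0.11 for Kcnj6 to Kcnj9 (-0.14 to 0.35, exact permutation p = 0.348). Without Dp16_2xIFNRs replicate 4, whose ratio to Kcnj3 of 17.4 per 100 was the lowest of its group, the first difference was 0.19 (exact permutation p = 0.0238, not adjusted).

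Kcnj6 remained a small share of the GIRK transcripts in all genotypes. The GIRK sum here also took in Kcnj5, which averaged 0.161 RPKM in Dp16_2xIFNRs, 0.193 in Dp16 and 0.149 in WT. Of the summed RPKM of Kcnj3, Kcnj5, Kcnj6 and Kcnj9, Kcnj6 made up 7.51% ± 0.877 in Dp16_2xIFNRs, 6.98% ± 0.641 in Dp16 and 4.51% ± 0.619 in WT. The lowest duplication library held 6.14% and the highest WT library 5.29%. The sum itself was 72.8 ± 4.43 RPKM in Dp16_2xIFNRs, 70.8 ± 4.03 in Dp16 and 74.4 ± 6.82 in WT, with overlapping ranges.

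**Figure D4:**
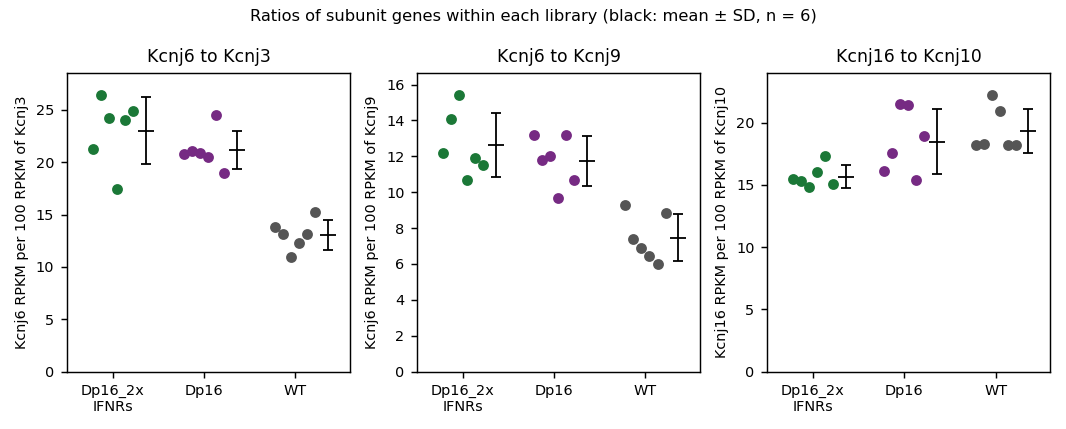
Transcript ratios within each library, as RPKM of the first gene per 100 RPKM of the second, with Dp16_2xIFNRs, Dp16 and WT from left to right and the mean ± SD of 6 libraries in black. Kcnj6 stood higher against Kcnj3 and Kcnj9 in both duplication genotypes than in WT without overlap, and Kcnj16 stood lower against Kcnj10 in Dp16_2xIFNRs than in WT.

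Kcnj15, the second member inside the segment, was close to absent from these libraries. It had 1 to 9 counts per library in Dp16_2xIFNRs, 1 to 6 in Dp16 and 0 to 6 in WT, or 24, 18 and 21 counts over the 6 libraries of each group. The ratio of the pooled count rates was 1.03 for Dp16_2xIFNRs against WT (exact 95% interval 0.547 to 1.94) and 0.798 for Dp16 against WT (0.401 to 1.57). Both intervals contain 1 and the copy ratio of 1.5, and cover counting error only. A rise by the copy ratio was not detectable at this depth. Relative to the other segment genes Kcnj15 was lower by 0.52 on the log2 scale in Dp16_2xIFNRs (exact permutation p = 0.249) and by 0.71 in Dp16 (exact permutation p = 0.0974), and without WT replicate 5, which had 0 counts, the Dp16 value was -0.99 (exact permutation p = 0.013, not adjusted). These log2 values used a prior count of 2, and with a prior count of 0.5 the Dp16 difference was -0.67 (exact permutation p = 0.348). At so few counts the prior damps any change in Kcnj15 but little in the segment median, so a negative value was favoured beforehand. These tests cannot show whether Kcnj15 follows the segment.

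Of the glial pair, Kcnj16 fell in Dp16_2xIFNRs. It had 27.5, 29.4 and 32.6 CPM in the lowest, median and highest Dp16_2xIFNRs library, 28.9, 34.9 and 39.1 in Dp16 and 29.6, 39.6 and 45.2 in WT. The lowest WT library, replicate 6, lay inside the Dp16_2xIFNRs range, while the other 5 WT libraries, at 38.7 CPM or more, lay above all Dp16_2xIFNRs libraries. The fold change in Dp16_2xIFNRs was 0.766 (95% interval 0.688 to 0.852, log2 fold change -0.39, SE 0.0741, adjusted p = 0.00901). In each fit that left out 1 library the adjusted p stayed between 0.000278 and 0.0328, and without WT replicate 6 the log2 fold change was -0.45.

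In Dp16 Kcnj16 did not pass the test, with a fold of 0.89 (0.8 to 0.99, unadjusted p = 0.0341, adjusted p = 0.516). The direct comparison of Dp16_2xIFNRs with Dp16 gave a fold of 0.86 (0.773 to 0.958, unadjusted p = 0.00837, adjusted p = 1). A difference between the duplication genotypes was therefore not called. Over both duplication genotypes the log2 fold change against WT was -0.28 (adjusted p = 0.0279), and this call was lost in 7 of 18 fits that left out 1 library. The largest adjusted p of these, 0.098, came without WT replicate 4.

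Kcnj10 was not called. It had 236, 261 and 288 CPM in Dp16_2xIFNRs, 225, 259 and 295 in Dp16 and 223, 294 and 310 in WT. Its fold was 0.944 (0.845 to 1.05, adjusted p = 0.772) in Dp16_2xIFNRs and 0.936 (0.838 to 1.05, adjusted p = 0.813) in Dp16. WT spread most, as replicates 3 and 6 had 247 and 223 CPM and the other 4 had 293 to 310 CPM.

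The ratio of Kcnj16 to Kcnj10, a comparison chosen after their values were seen, is given as a description. Per 100 RPKM of Kcnj10, Kcnj16 had 15.7 ± 0.891 RPKM in Dp16_2xIFNRs, 18.5 ± 2.6 in Dp16 and 19.3 ± 1.77 in WT. All 6 Dp16_2xIFNRs libraries, at 17.3 or less, lay below the WT libraries, at 18.2 or more. The log2 difference of Dp16_2xIFNRs from WT was -0.30 (95% interval -0.43 to -0.17), that of Dp16_2xIFNRs from Dp16 was -0.23 (-0.43 to -0.03), and that of Dp16 from WT was -0.07. This ratio contains the Kcnj16 values given above and is no second line of evidence for them.

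Of 9 astrocyte markers, 0 were called by edgeR and 5 lay above WT in Dp16_2xIFNRs, with a median log2 fold change of 0.0090. Gfap, the filament protein of astrocytes, was the one with an unadjusted p under 0.05, at 1.15-fold in Dp16_2xIFNRs (unadjusted p = 0.0245, adjusted p = 0.323) and 1.22-fold in Dp16 (unadjusted p = 0.00215, adjusted p = 0.157). Their sum spanned 7650 to 9960 CPM in Dp16_2xIFNRs, 7790 to 10200 in Dp16 and 6910 to 10200 in WT. In WT the astrocyte sum went with Kcnj16 only at the ends. Replicate 6 was lowest in both (6910 and 29.6 CPM) and replicate 4 highest in both (10200 and 45.2 CPM). Between them the astrocyte sum fell as Kcnj16 rose, from 9300 CPM at 38.7 in replicate 1 to 9100 at 41.1 in replicate 5. Microglial markers summed to 322 to 380 CPM in Dp16_2xIFNRs, 317 to 391 in Dp16 and 278 to 433 in WT, and 0 of the 5 lay above WT in Dp16_2xIFNRs, where 2 had an unadjusted p under 0.05 and the median log2 fold change was -0.14. Markers of oligodendrocyte precursors summed to 136 to 185 CPM in Dp16_2xIFNRs, 154 to 200 in Dp16 and 138 to 226 in WT, with 0 of 4 above WT in Dp16_2xIFNRs. Markers of mature oligodendrocytes summed to 5280 to 5810 CPM in Dp16_2xIFNRs, 4850 to 6390 in Dp16 and 4650 to 6050 in WT, with 6 of 6 above WT in Dp16_2xIFNRs, a median log2 fold change of 0.14 and 3 of 6 at an unadjusted p under 0.05. Mobp, a myelin gene, was 1.34-fold there (adjusted p = 0.0572). The part of these cell types in the Kcnj16 result was not tested.

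Kcnj4 and Kcnj2, the strongly rectifying channels, were not called. Kcnj4 had 120, 127 and 142 CPM in Dp16_2xIFNRs, 117, 133 and 145 in Dp16 and 130, 134 and 147 in WT. It varied little, and its fold was 0.938 (0.873 to 1.01, adjusted p = 0.524) in Dp16_2xIFNRs and 0.972 (0.904 to 1.04, adjusted p = 0.903) in Dp16. Kcnj2 had 14, 17.7 and 32.9 CPM in Dp16_2xIFNRs, 14, 16.5 and 20.3 in Dp16 and 15.6, 19.3 and 26.3 in WT. Dp16_2xIFNRs replicate 5, at 32.9 CPM, stood far above the other 5 libraries of its group, which ended at 19.7. This library also had the highest summed striatal neuron markers, 961 CPM against 262 to 665 in the other 5. Striatal sums spanned 257 to 698 CPM in Dp16 and 293 to 838 in WT. In WT, replicate 1 had the highest Kcnj2, 26.3 CPM, and the lowest striatal sum, 293 CPM. The part of striatal tissue in the Kcnj2 values was not tested. The fold of Kcnj2 was 0.983 (0.753 to 1.28, adjusted p = 0.989) in Dp16_2xIFNRs and 0.834 (0.638 to 1.09, adjusted p = 0.764) in Dp16. Its intervals were the widest of the 8 genes, and its neighbour Kcnj16 did not share the high library, with 29.7 CPM there.

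Kcnj11 had 49.5, 52.3 and 56.3 CPM in Dp16_2xIFNRs, 42, 51.8 and 64.4 in Dp16 and 52.2, 56.2 and 67.7 in WT. The ranges overlapped, and the fold was 0.902 (0.797 to 1.02, adjusted p = 0.551) in Dp16_2xIFNRs and 0.899 (0.794 to 1.02, adjusted p = 0.65) in Dp16. Its partner Abcc8, which encodes the sulfonylurea receptor of these channels, had log2 fold changes of -0.12 in Dp16_2xIFNRs and -0.13 in Dp16 and was not called.

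Of 18 genes for receptors that open GIRK channels, 1 was called in Dp16_2xIFNRs against WT and 0 by edgeR in Dp16 against WT. Of all tested genes, 1.05% and 0.748% were called in these contrasts. In each contrast 3 of the 18 had an unadjusted p under 0.05. Sstr3, a somatostatin receptor gene, averaged 24.1 ± 1.41 CPM in Dp16_2xIFNRs, 25.1 ± 1.87 in Dp16 and 30 ± 2.57 in WT. It was 0.802-fold in Dp16_2xIFNRs against WT (adjusted p = 0.0118) and 0.837-fold in Dp16 (adjusted p = 0.068). Most lay below WT, 13 of the 18 in Dp16_2xIFNRs and 15 in Dp16, with median log2 fold changes of -0.06 and -0.11. Of all tested genes, 49.8% and 50.7% lay below WT, and these shares also apply to the counts in the next 2 paragraphs. Oprk1, an opioid receptor gene, was 0.722-fold in Dp16_2xIFNRs (unadjusted p = 0.00276, adjusted p = 0.129) and 0.773-fold in Dp16 (unadjusted p = 0.0135, adjusted p = 0.372). The GABA receptor gene Gabbr1 averaged 856 ± 17.8 CPM in Dp16_2xIFNRs, 877 ± 32.7 in Dp16 and 880 ± 26.6 in WT.

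No gene was called among the G protein subunits, the GIRK regulators, the ATP-sensitive and anchoring partners, the leak channels or the other inward rectifiers by edgeR. At an unadjusted p under 0.05 there were 3 G protein, 1 regulator and 3 leak channel genes in Dp16_2xIFNRs against WT, and 0, 2 and 2 in Dp16 against WT. Of 19 tested G protein subunit genes, 6 lay above WT in Dp16_2xIFNRs and 8 in Dp16, with medians of -0.03 and -0.01. Gnao1, the most abundant, averaged 1020 ± 44.3 CPM in Dp16_2xIFNRs, 1020 ± 59.6 in Dp16 and 968 ± 37.7 in WT. Of 13 regulator genes, which include RGS proteins that speed GIRK closure and KCTD proteins that attach to GABA receptors, 5 lay above WT in Dp16_2xIFNRs and 6 in Dp16. Rgs4 averaged 434 ± 36.7 CPM in Dp16_2xIFNRs, 387 ± 64.3 in Dp16 and 397 ± 42.7 in WT.

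Of 11 partners of ATP-sensitive and other inward rectifier channels, 3 lay above WT in Dp16_2xIFNRs and 2 in Dp16. Dlg4, a scaffold of the postsynaptic density, averaged 1060 ± 41 CPM in Dp16_2xIFNRs, 1120 ± 42.4 in Dp16 and 1120 ± 74.9 in WT. Of 8 leak channel genes of the Kcnk family, which also set the resting potential, 0 lay above WT in Dp16_2xIFNRs and 1 in Dp16, with medians of -0.08 and -0.07. Kcnk1 averaged 100 ± 3.58 CPM in Dp16_2xIFNRs, 99.7 ± 1.88 in Dp16 and 105 ± 4.57 in WT. Of the 6 other inward rectifier genes 5 were tested, and 3 lay above WT in Dp16_2xIFNRs and 4 in Dp16. Kcnj12 averaged 12.7 ± 1.04 CPM in Dp16_2xIFNRs, 12.5 ± 1.4 in Dp16 and 12.4 ± 1.1 in WT, and Kcnj1, a kidney channel, had 0 counts in every library.

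Sex changed no member past the threshold. Kcnj6 was higher in males by 0.22 on the log2 scale over the 3 genotypes (unadjusted p = 0.0236, adjusted p = 0.696). In Dp16_2xIFNRs it averaged 36.5 ± 1.64 CPM in males and 34.4 ± 3.9 in females, in Dp16 34.9 ± 4.17 and 30 ± 4.09, and in WT 25 ± 5.61 and 19.6 ± 3.1 (SD, n = 3 each). The fold of Kcnj6 in Dp16_2xIFNRs against WT was 1.46 in males and 1.76 in females. That of Kcnj16 was 0.825 in males and 0.71 in females. The difference in fold change between the sexes was not called for either gene (adjusted p = 0.91 and 0.878) in edgeR's interaction test. At an unadjusted p under 0.05 it was 1 of the 8 tested members, Kcnj10, with a male less female difference of 0.34 on the log2 scale (unadjusted p = 0.0261, adjusted p = 0.826). With 3 libraries per sex and genotype, the interval of that difference for Kcnj6 ran from -0.73 to 0.19.

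Across libraries of the same genotype, 2 of the 36 pairs of members varied together past the threshold. Kcnj3 and Kcnj11, compared as log2 CPM less the genotype mean over 18 libraries, had a Pearson r of 0.72 (permutation p = 0.00183, adjusted p = 0.0329) and a Spearman rho of 0.79 (permutation p = 0.00046, adjusted p = 0.0166). The correlation was 0.76 in Dp16_2xIFNRs, 0.86 in Dp16 and 0.71 in WT, and 0.61 without the 2 libraries farthest out in Kcnj3. Kcnj6 and Kcnj16 varied in opposite directions, with r = -0.72 (permutation p = 0.00117, adjusted p = 0.0329) and rho = -0.65 (permutation p = 0.00438, adjusted p = 0.0788). Within genotypes this r was 0.03 in Dp16_2xIFNRs, -0.91 in Dp16 and -0.75 in WT, so that the relation was not seen in Dp16_2xIFNRs. It was -0.59 when deviations were taken within sex and genotype, -0.63 without WT replicate 6, and also -0.63 without the 2 libraries farthest out in Kcnj6. At the ends of the WT range of Kcnj16 the glial marker sums were extreme as well. Replicate 6 was lowest and replicate 4 highest in Kcnj16, astrocyte markers and microglial markers. Among WT replicates 1, 2, 3 and 5 the astrocyte sum fell as Kcnj16 rose. In Dp16, replicate 4 was highest in each. Dp16 replicate 6, lowest in both marker sums, had 35.9 CPM of Kcnj16 against a group median of 34.9. The part of these cell types in this correlation was not tested. Kcnj6 and its partner Kcnj3 had r = 0.68, which did not pass after adjustment (permutation p = 0.00949, adjusted p = 0.114).

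**Figure D5:**
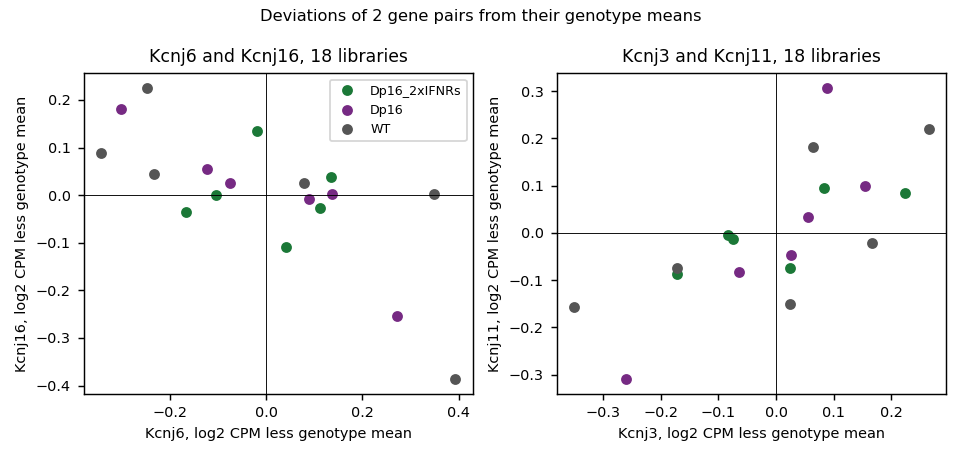
Log2 CPM less the genotype mean for Kcnj6 against Kcnj16 (left) and Kcnj3 against Kcnj11 (right), 1 point per library and coloured by genotype. Kcnj6 and Kcnj16 run in opposite directions (r = -0.72) with WT replicate 6 at the lower right, and Kcnj3 and Kcnj11 run together (r = 0.72).

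The genes whose deviations from the genotype mean were most like those of Kcnj6 over the 18 libraries, among 11613 genes with a mean of at least 5 CPM, were Ppp2r5e (r = 0.952), Pakap (0.949), Nos1ap (0.938), Zfyve9 (0.938) and Fstl4 (0.937). None of these 5 lies on chromosome 16, and their log2 fold changes ran from -0.0002 to 0.0805 in Dp16_2xIFNRs and from -0.0978 to 0.0147 in Dp16. For Kcnj10 the 5 were Csrp1 (r = 0.911), Rtn2, Tst, Slc35a4 and Tmcc2, the last at 0.861. For Kcnj16, added after its values were seen, they were Nhsl1 (r = 0.923), C1qa, Ctss, Suclg2 and Fads2, the last at 0.917. C1qa and Ctss are known as genes of microglia. These values describe 18 libraries that share tissue and processing, and they carry no test.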

How the data were processed

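Per the labels' protocols, polyadenylated RNA from TRIzol extracts went into stranded libraries (Universal Plus mRNA kit of Tecan/Nugen) for paired-end NovaSeq sequencing. The submitters' processing notes name HISAT2 2.1.0 and HTSeq 0.6.1, besides bcl2fastq, FastQC 0.11.5 and SAMtools 1.5, and the build GRCm38. The authors deposited raw counts per gene and RPKM values, which equal the count over the library total and a single length per gene. No source used here gives the strand setting, the multi-mapping rule or any filter.

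Groups, sex and age came from the labels. Counts were filtered (filterByExpr, minimum count 10), scaled by TMM and tested with edgeR 4.0.16 (quasi-likelihood, robust, genotype and sex as terms, 18 libraries) under R 4.3.3. Called genes had a p below 0.05 after Benjamini-Hochberg adjustment over the 18717 tested. The common biological coefficient of variation was 12.2% with 14 residual degrees of freedom. The fit was tested on simulated data. Ratios and segment-relative values used log2 CPM (prior count 2) and two-sided exact permutation tests, adjusted over 12 tests. Correlations used 100000 permutations within genotypes. The segment ran from Lipi to Zbtb21.

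The members, gene lists and marker lists were chosen with earlier results of these data known. Named besides the members were called list genes, otherwise abundant list genes, the 4 nearest tested segment genes on each side, and the 5 genes most alike. Alternatives covered scaling, tool (DESeq2 1.42.0, limma 3.58.1), RPKM in place of counts, filter, covariates, libraries in the fit and each library left out. Replicate numbers were not taken to pair samples. Sequences and positions came from GENCODE M21, and 1 sequence is not reported here.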

Additional observations from a re-analysis of the deposited data

Results flagged for a closer look

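One library stood apart from its group in 1 of the 42 sets of 6 values checked. Kcnj2 had 32.9 CPM in Dp16_2xIFNRs replicate 5, against 19.7 CPM in the next highest library of that genotype. Chance alone marks about 1 in 20 such sets.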

How the results depend on the processing

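The calls of Kcnj6 and Kcnj16 in Dp16_2xIFNRs against WT held in all 14 other settings and all 18 fits that left out 1 library. Kcnj6 in Dp16 against WT kept its direction, with log2 fold changes of 0.48 to 0.61 when 1 library was left out, but lost its call with no filter (0.55, adjusted p = 0.0515), with only the groups compared (0.55, adjusted p = 0.0676) and without Dp16 replicate 5 (0.51), and the count of members called there was then 0. Kcnj16 over both duplication genotypes ranged from -0.34 to -0.24 when 1 library was left out and lost its call in 7 of 18 such fits, which left 1 to 2 members called. The Kcnj15 value relative to the segment in Dp16 ranged from -0.99 to -0.57, the Kcnj6 to Kcnj3 difference of Dp16_2xIFNRs from Dp16 ranged from 0.0744 to 0.19 and passed an unadjusted 0.05 only without Dp16_2xIFNRs replicate 4, and the Kcnj16 to Kcnj10 difference between those groups ranged from -0.28 to -0.18. No called value changed sign. The causes of lost calls were not tested. Counts of all genes called moved by over 1.5 times with DESeq2 (405 in Dp16_2xIFNRs and 250 in Dp16, against 196 and 140), with limma-voom sample weights in Dp16_2xIFNRs (318), and without Dp16_2xIFNRs replicate 2 or WT replicate 2 (121 and 125 in Dp16_2xIFNRs). Over both genotypes they were 522 with DESeq2, 443 with sample weights and 176 without WT replicate 2, against 269. Deviations of same-numbered libraries had a positive r in 5 of 6 pairs of each 2 genotypes. This r ran from -0.23 to 0.64 for WT and Dp16, from -0.04 to 0.38 for WT and Dp16_2xIFNRs, and from -0.05 to 0.49 for Dp16 and Dp16_2xIFNRs. Of the 18 libraries, 6 matched best with their own number among the libraries of the other genotypes. The share expected by chance was not computed. With the replicate block, which replaced the sex term, Kcnj6 had an adjusted p of 0.00595 in Dp16_2xIFNRs and 0.0331 in Dp16. That fit called 276 and 167 genes. A term for the class of identifier number was among the settings that ended no call. The segment-relative value of Kcnj15 could not be computed from RPKM because 1 library had 0.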
